A study of Mus musculus with 18 samples.

Results

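Fibroblasts sorted from pancreatic tumors of Saa3 knockout mice (KO_CAF, n = 3) were compared with fibroblasts from tumors of mice with intact Saa3 (WT_CAF, n = 5). The members are all libraries whose labels name them tumor fibroblasts of either genotype, 8 of the 18 libraries of the series. WT_CAF mice carried the alleles K-Ras+/LSLG12Vgeo and Trp53lox/lox, the Cre system Elas-tTA/tetO-Cre and the reporter Rosa26+/EYFP. KO_CAF mice carried the same 4 modifications together with Saa3-/-, a label that names no cell type to which the deletion is limited. The other libraries were normal pancreatic fibroblasts (NPF, n = 3; K-Ras+/+ with the same Cre system and reporter, and with no Trp53 or Saa3 allele named) and tumor cells with the genotype of WT_CAF (WT_tumor, n = 4) or of KO_CAF (KO_tumor, n = 3). In this model the elastase promoter drives the transactivator that turns on Cre, and elastase is an enzyme of acinar cells. Neither age nor sort markers are stated in the labels. The labels do not say which libraries share an animal or whether animals were pooled, so p-values measure the spread between libraries. Poly(A) RNA was sequenced, and the values are FPKM, fragment counts scaled for transcript length and library size. Replicate numbers are names only.

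Saa3 encodes a serum amyloid A protein, a small acute-phase apolipoprotein. In mice the liver makes most Saa1 and Saa2, while Saa3 is made mainly in other tissues, by macrophages, adipocytes and stromal cells, after cytokines such as interleukin 1, interleukin 6 and tumor necrosis factor act through NF-kB and C/EBP factors. Serum amyloid A proteins bind lipids and signal through Toll-like and scavenger receptors. Mpp6 belongs to the membrane-associated guanylate kinases (MAGUK), scaffold proteins that tie transmembrane proteins to partners such as the Lin7 proteins at cell contacts.

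The 8 libraries held 10793 to 11468 genes at 1 FPKM or more, of 23951 listed, and their FPKM summed to 396646 to 627869; depth in fragments is unknown. WT_CAF 2 to 5 and KO_CAF carried fibroblast RNA: the summed FPKM of 16 fibroblast markers was 16593 to 23806 and 12456 to 26127, respectively, against 1024 to 3901 in the 7 tumor cell libraries. The library labelled WT_CAF 1 stood apart from its group. Its fibroblast markers summed to 4233 FPKM and its 21 epithelial tumor markers to 690 (69.1 to 452 in WT_CAF 2 to 5, and 3262 to 10696 in the tumor cell libraries), and the epithelial adhesion gene Epcam was at 0.220 FPKM there. Its closest library over all genes was WT_tumor 4 (Spearman correlation 0.887, across genes). Results below are therefore given with and without WT_CAF 1. The labels give no index sequence (WT_CAF 1 and 2, and all NPF), a 6-base index (WT_CAF 3, KO_CAF 1 and 2) or a 16-base index (WT_CAF 4 and 5, KO_CAF 3), and these 3 forms were taken here as library formats. They also give a lane for libraries with an index: lane 1 for WT_CAF 3 and KO_CAF 1 and 2, lane 7 for WT_CAF 4 and KO_CAF 3, and lane 6 for WT_CAF 5. The most similar libraries were not of 1 genotype. Each of the 3 KO_CAF libraries was closest to a WT_CAF library and each of WT_CAF 2 to 5 to a KO_CAF library (Spearman correlations 0.928 to 0.962 across genes), and in 5 of these 7 cases the closest library had the same format. Cufflinks listed Col1a1, Col1a2 and C3 at 0 in KO_CAF 2, Col3a1 at 0 in WT_CAF 2 to 4 and in KO_CAF 1 and 2, and Fn1 at 0 in WT_CAF 1 and KO_CAF 1. Other libraries of these groups held Col1a1 at 331 to 10435 FPKM and C3 at 58.3 to 3857 FPKM, so these zeros are read as failed estimates. For Col3a1 in KO_CAF 1 and 2 this is uncertain, since KO_CAF 3 alone was above 0 (9050 FPKM).

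The comparison turned on 4 genes: Saa3, the chitinase-like protein gene Chil1, the interleukin 10 family cytokine gene Il19, and Mpp6. Their promoters are shown because these are the genes called with all libraries or in a fit that left out WT_CAF 1. Each line gives 250 bases before the RefSeq transcription start, 5′ to 3′ on the gene's own strand, from RefSeq on GRCm38.p6 (the FPKM were made on another build). The windows are chr7:46715677-46715926 on the minus strand for Saa3, chr1:134181906-134182155 on the plus strand for Chil1, chr1:130940116-130940365 on the minus strand for Il19 and chr6:50109991-50110240 on the plus strand for Mpp6, the first of 2 starts listed for Mpp6. Capitals mark matches on either strand to a C/EBP pattern (TTNNGCAA), the NF-kB consensus or a TATA pattern (TATANA), where N is any base.
Saa3: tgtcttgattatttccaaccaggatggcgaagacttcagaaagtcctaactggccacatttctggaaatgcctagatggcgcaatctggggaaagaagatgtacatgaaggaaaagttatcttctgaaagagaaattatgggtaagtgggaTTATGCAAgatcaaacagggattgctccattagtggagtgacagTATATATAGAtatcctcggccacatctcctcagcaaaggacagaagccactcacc
Chil1: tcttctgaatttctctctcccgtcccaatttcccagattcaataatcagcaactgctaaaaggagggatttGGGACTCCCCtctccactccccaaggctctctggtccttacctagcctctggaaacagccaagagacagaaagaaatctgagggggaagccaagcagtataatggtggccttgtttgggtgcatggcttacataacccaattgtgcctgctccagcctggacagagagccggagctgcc
Il19: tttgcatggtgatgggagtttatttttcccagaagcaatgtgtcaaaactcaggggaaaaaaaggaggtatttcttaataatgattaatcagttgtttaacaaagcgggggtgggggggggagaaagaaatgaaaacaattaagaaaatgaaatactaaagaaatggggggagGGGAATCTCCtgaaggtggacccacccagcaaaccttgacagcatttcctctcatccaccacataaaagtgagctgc
Mpp6: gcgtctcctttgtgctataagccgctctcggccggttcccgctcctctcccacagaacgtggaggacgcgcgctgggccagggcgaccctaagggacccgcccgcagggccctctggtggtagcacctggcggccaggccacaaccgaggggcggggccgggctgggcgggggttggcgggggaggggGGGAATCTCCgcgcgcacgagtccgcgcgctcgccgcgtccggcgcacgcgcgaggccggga
The Saa3 window held a C/EBP match, TTATGCAA, beginning 99 bases before the start, and overlapping TATA matches beginning 55, 53 and 51 bases before it. Chil1 held the NF-kB match GGGACTCCCC at 179 bases. Il19 and Mpp6 held the same 10 letters, GGGAATCTCC, at 77 and 62 bases. The window before the second listed Mpp6 start, chr6:50110610-50110859, held 0 matches to the 3 patterns. Of 32851 windows of this length, 9.56% held the C/EBP pattern, 7.25% the NF-kB consensus and 22.6% the TATA pattern. The Mpp6 window was 75.6% G and C, against 43.2% for Saa3, 51.6% for Chil1 and 42% for Il19. These matches are letters in a window, and binding was not measured.

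Saa3, the deleted gene, checks the labels. Its level in WT_CAF 1 to 5 was 7.24, 892, 4278, 1182 and 2270 FPKM. In KO_CAF 1 to 3 it was 1.85, 1.16 and 0.434 FPKM. All 3 knockout libraries lay below all 5 wild-type libraries, and WT_CAF 1 lay closer to the knockout libraries than to the rest of its group. On the log2(FPKM + 1) scale, which all differences below use, KO_CAF minus WT_CAF was -10.40 ± 1.80 (standard error) in the fit over all 18 libraries with the format as a term, and Saa3 was not called there (limma, Benjamini-Hochberg adjusted p = 0.316). Without WT_CAF 1 the adjusted p was 0.0635 with the same term. The size was the same, since WT_CAF 1 and 2 do not enter it with this term. With formats reduced to 2 levels (16-base index or not) they do. The difference was then -8.18 ± 1.81 with WT_CAF 1 included, and Saa3 was not called (limma adjusted p = 0.789). With WT_CAF 1 left out and the 2-level term it was -9.86 ± 1.35 and Saa3 fell (limma adjusted p = 0.0248). In an exact two-sided permutation test on the log2 values of the 8 libraries, p was 0.0179, the smallest that 3 against 5 allows; without WT_CAF 1 it was 0.0286, again the smallest possible.

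Mpp6 was high in every knockout library. It stood at 10.8, 3.79, 3.85, 5.17 and 12.5 FPKM in WT_CAF 1 to 5, a mean of 7.22 ± 4.12 (SD, n = 5). In KO_CAF 1 to 3 it stood at 131, 182 and 137 FPKM, a mean of 150 ± 27.9 (SD, n = 3), 20.8 times the wild-type mean and 23.7 times the mean of WT_CAF 2 to 5. The groups did not overlap, and the lowest knockout library was far above the highest wild-type library. Mpp6 rose by 4.49 ± 0.38 (limma adjusted p = 1.6e-04), with a smaller error without WT_CAF 1 (± 0.33, adjusted p = 5.5e-05). The exact two-sided permutation test over 8 libraries gave p = 0.0179, the smallest this design allows; it restates that the groups did not overlap, which held for 160 genes (1.2%), and Mpp6 was chosen with earlier results known. The rise was present within both formats that hold both genotypes, at 5.001 among libraries with a 6-base index and 3.92 among those with a 16-base index. When the fit held the 8 tumor fibroblast libraries alone, the difference was 4.46 ± 0.52 and was not called (limma adjusted p = 1). Normal fibroblasts held 4.65, 6.26 and 5.12 FPKM of Mpp6, inside the range of WT_CAF, so the knockout libraries stood above normal as well as tumor fibroblasts with intact Saa3.

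**Figure D1:**
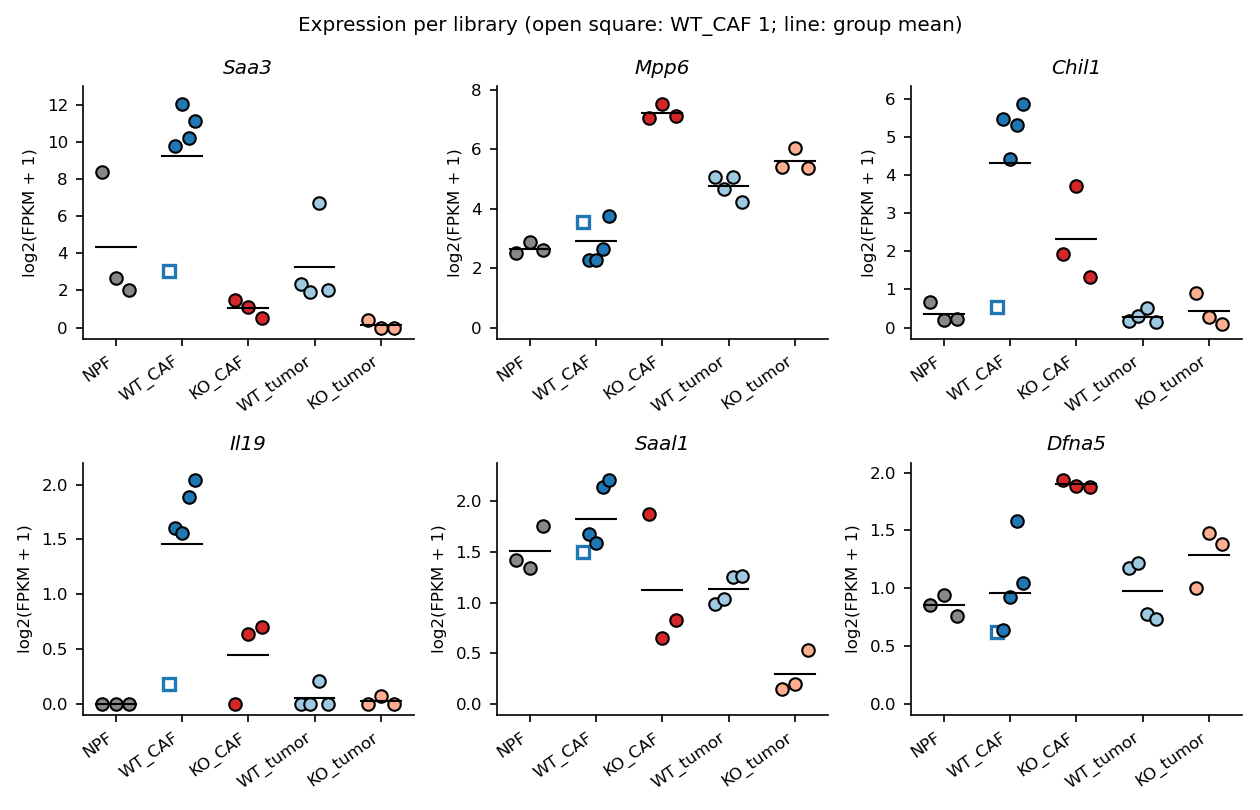
Level of 6 genes, log2(FPKM + 1) on the y axis, in the 5 groups; points are the 18 libraries, the open square is WT_CAF 1 and lines are group means. Saa3 is low and Mpp6 high in all 3 KO_CAF libraries, and WT_CAF 1 lies apart from WT_CAF 2 to 5 for Saa3, Chil1 and Il19.

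Over all 13369 genes tested, Mpp6 was the only gene that rose (0.00748% of genes) and 0 genes fell (0%) at an adjusted p under 0.05. An unadjusted p under 0.05 was seen for 125 genes (0.935%), 62 of them higher (0.464%) and 63 lower (0.471%) in KO_CAF. Evenly spread p-values, with no differences, would give a share of 0.05, and the share seen was below that. A gene that is not called in this fit is therefore not shown to be equal, and the deleted gene Saa3 was itself not called in it. Groups that did not overlap were seen for 160 genes (1.2%), 62 with all KO_CAF libraries above (0.464%) and 98 with all below WT_CAF (0.733%). Without WT_CAF 1 these were 307 genes (2.3%), 123 above (0.92%) and 184 below (1.38%). Leaving out WT_CAF 1 with the same terms also gave Mpp6 alone (0.00748%). With WT_CAF 1 left out and either the 2-level format term or no format term, 4 genes were called (0.0299%): Mpp6 rose (0.00748%), and Saa3, Chil1 and Il19 fell (0.0224%). In bulk samples fewer cells of a type and less RNA per cell cannot be told apart, for these genes and for those that follow.

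Chil1 encodes a secreted chitinase-like glycoprotein of inflamed and remodelling tissue. Its level was 0.456 FPKM in WT_CAF 1, 43.1, 20.5, 38.7 and 57.0 FPKM in WT_CAF 2 to 5, and 2.82, 12.0045 and 1.501 FPKM in KO_CAF 1 to 3. The knockout libraries lay below WT_CAF 2 to 5 and above WT_CAF 1. In the fit with WT_CAF 1 the difference was -2.94 ± 0.93 and was not called (limma adjusted p = 1). With WT_CAF 1 and the 2-level format term, in which this library enters the size, it was -1.97 ± 0.90 and was not called either. Without WT_CAF 1 and with the 2-level format term Chil1 fell by 2.98 ± 0.46 (limma adjusted p = 0.0457), and the mean of WT_CAF 2 to 5 was 7.31 times that of KO_CAF. With the 3-level term and without WT_CAF 1 it was not called (adjusted p = 0.266). The difference was -1.61 within the 6-base format and -4.26 within the 16-base format.

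Il19 encodes a cytokine that signals through the receptor of interleukin 20. It stood at 0.135 FPKM in WT_CAF 1, at 2.04, 1.94, 2.71 and 3.11 FPKM in WT_CAF 2 to 5, and at 0, 0.555 and 0.623 FPKM in KO_CAF 1 to 3. As with Chil1, the knockout libraries lay below WT_CAF 2 to 5 and overlapped the group only through WT_CAF 1. These are low levels, near the minimum of 1 FPKM used to keep a gene. Il19 fell by 1.29 ± 0.19 without WT_CAF 1 and with the 2-level format term (limma adjusted p = 0.0291). With the 3-level term and without WT_CAF 1 it was not called (limma adjusted p = 0.123). With all libraries and the 3-level term the difference was -1.32 ± 0.31 (limma adjusted p = 1). With all libraries and the 2-level term, in which WT_CAF 1 enters the size, the difference was -0.98 ± 0.30 and was not called. Within the formats it was -1.24 (6-base) and -1.27 (16-base). Normal fibroblasts were at or near 0 for both genes, with at most 0.585 FPKM of Chil1 and 0 of Il19.

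**Figure D2:**
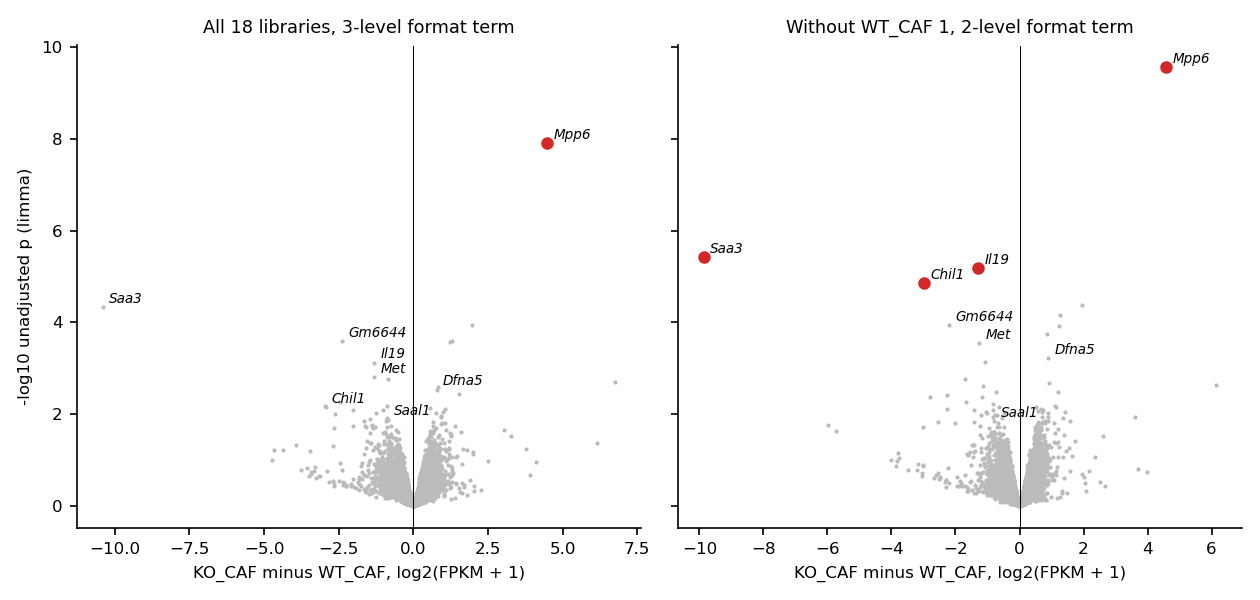
Difference between KO_CAF and WT_CAF, log2(FPKM + 1), on the x axis against -log10 of the unadjusted limma p on the y axis; each point is 1 of 13369 genes and red points passed an adjusted p under 0.05. With all libraries (left) only Mpp6 was called, and without WT_CAF 1 and with the 2-level format term (right) Saa3, Chil1 and Il19 were called too.

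Below these genes lay others with low p-values that did not pass adjustment. The 12 genes with the lowest p on each side were taken, among those with a mean of at least 5 FPKM in the higher group. Their differences kept their sign in each of the 20 alternative settings in which a gene was tested. Of the 12 higher genes, 4 had groups that did not overlap (Mpp6, Mir719, Spsb3 and Golga3), and of the 12 lower genes 2 did (Saa3 and Met). For Mir719 this rests on values that are all but 0, with 0.00278 FPKM in KO_CAF 1 and at most 0.000419 in WT_CAF. The genes on both sides were chosen by their p-values, so these counts describe them and test nothing.

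Met encodes the receptor of hepatocyte growth factor. It stood at 8.37, 3.52, 3.25, 4.48 and 5.56 FPKM in WT_CAF 1 to 5 and at 1.96, 0.646 and 0.989 FPKM in KO_CAF 1 to 3. Every knockout library was below every wild-type library, with the highest wild-type value in WT_CAF 1, the library closest to tumor cells, which held 10.6 to 17.9 FPKM. The difference was -1.31 ± 0.33 (limma adjusted p = 1), and without WT_CAF 1 and with the 2-level format term it was -1.25 ± 0.26 (adjusted p = 0.374). Gm6644, a predicted gene, had 110, 276, 404, 593 and 1446 FPKM in WT_CAF 1 to 5 and 66.8, 69.9 and 251 in KO_CAF 1 to 3, with a difference of -2.38 ± 0.49 (limma adjusted p = 0.586). Only KO_CAF 3 reached into the wild-type range. Snw1, a splicing and transcription cofactor, was at 18.5 to 48.6 FPKM in WT_CAF and 12.2 to 24.2 in KO_CAF (-0.85 ± 0.22, limma adjusted p = 1).

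Pla2g7, a secreted phospholipase that breaks down platelet-activating factor, varied widely within both groups. It stood at 73.2, 10.3, 68.0, 3.89 and 27.8 FPKM in WT_CAF 1 to 5 and at 8.17, 0.914 and 2.59 FPKM in KO_CAF 1 to 3. WT_CAF 4 lay inside the knockout range. Btg3, an antiproliferative protein of the Btg and Tob family, was at 31.3 and 43.8 FPKM in WT_CAF 4 and 5 and at 1.53 to 5.95 in WT_CAF 1 to 3. It was at 4.50003, 0.00311 and 0.00832 FPKM in KO_CAF 1 to 3. Its difference of -2.95 ± 0.93 (limma adjusted p = 1) rested on 2 wild-type libraries of the 16-base format and on the values near 0 in KO_CAF 2 and 3. Values near 0 were also listed in NPF 1 and 2 and in WT_tumor 3. Sp6, a transcription factor of the Sp family, was at 22.8 and 11.2 FPKM in WT_CAF 3 and 5 and at 0.611 to 1.35 in the other WT_CAF libraries. KO_CAF held 0.455 to 2.59 FPKM of Sp6, and its difference was called only without WT_CAF 4 (-2.96 ± 0.37, limma adjusted p = 0.0141). Mcpt1, a mast cell protease, rested on 1 library, with 30.8 FPKM in WT_CAF 3 and at most 1.57 in the other 7.

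On the higher side, Gabra3, a subunit of the GABA-A receptor, was at 0.652, 5.46, 0.986, 1.98 and 1.86 FPKM in WT_CAF 1 to 5 and at 9.01, 10.6 and 3.10 in KO_CAF 1 to 3. Only WT_CAF 2 reached the knockout range. Its difference was 1.53 ± 0.44 (limma adjusted p = 1). Spsb3, an adaptor of a ubiquitin ligase, was at 9.22 to 11.6 FPKM in WT_CAF and 13.7 to 16.8 in KO_CAF (0.56 ± 0.18, limma adjusted p = 1). Golga3, a Golgi matrix protein, was at 7.98 to 12.8 FPKM in WT_CAF and 15.9 to 19.05 in KO_CAF (0.55 ± 0.22, limma adjusted p = 1). For both genes the groups did not overlap, but the gap was smaller than the range of the wild-type libraries. Cbl, a ubiquitin ligase that turns off receptor tyrosine kinases, was at 2.12 to 6.17 FPKM in WT_CAF and 5.42 to 7.84 in KO_CAF, with only WT_CAF 1 in the knockout range. Sult1e1, the estrogen sulfotransferase, was at 72.6 and 31.2 FPKM in KO_CAF 2 and 3, listed at 0 in KO_CAF 1, and at most 3.49 in WT_CAF. The microRNA gene Mir719 was at 187 and 686 FPKM in KO_CAF 2 and 3 and below 0.01 in the other 6 libraries. A length-scaled value of such a short feature in poly(A) RNA is uncertain.

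The tumor cell libraries hold the same pair of genotypes, and 0 genes were called between them (0%), with 528 at an unadjusted p under 0.05 (3.95%). Mpp6 was at 32.0, 24.0, 32.7 and 17.5 FPKM in WT_tumor 1 to 4 and at 41.4, 64.9 and 40.3 in KO_tumor 1 to 3. All 3 knockout tumor libraries lay above the wild-type ones, with a mean 1.84 times as high, against 20.8 times in fibroblasts. The difference in tumor cells was 0.82 ± 0.35 (limma adjusted p = 1). The test of the difference between both knockout effects gave 3.66 ± 0.52 for Mpp6, which was not called with all libraries (limma adjusted p = 0.0788) and was called without WT_CAF 1 (adjusted p = 0.0227; 0.00748% of genes) and without WT_CAF 1 with the 2-level format term (3.76, adjusted p = 0.00412). No other gene was called in these 3 fits, with 0 of 13369 genes called (0%) with all libraries and 185 at an unadjusted p under 0.05 (1.38%). Chil1 and Il19 were low in all 7 tumor cell libraries, and their tumor cell differences were 0.15 ± 0.85 and -0.04 ± 0.28. For Met the tumor cell difference was -0.10 ± 0.30.

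Groups that did not overlap in tumor cells were seen for 182 genes with KO_tumor above (1.36%) and 301 with KO_tumor below (2.25%). Of 13369 genes, 3 separated the genotypes without overlap and in the same direction in both cell types. They were Saa3, Mpp6 and Rnaset2b, which was picked out after its values were seen. How many genes would do so if separations in the 2 cell types were unrelated was not computed, so this count is not read as a shared effect. Rnaset2b, a copy of the lysosomal ribonuclease T2 gene, was listed at 0 in all 5 WT_CAF libraries. It stood at 1.86, 1.15 and 1.42 FPKM in KO_CAF 1 to 3 and 1.997, 1.04 and 1.12 FPKM in KO_tumor 1 to 3, against 0, 0, 0.856 and 0.575 FPKM in WT_tumor 1 to 4. Its copy Rnaset2a was listed at 0.001 FPKM or less in 6 of the 8 fibroblast libraries and at 5.16 and 2.89 FPKM in WT_CAF 5 and KO_CAF 3, and how the authors' counting shared reads between the copies is not stated, so the level of Rnaset2b is uncertain.

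Genes next to the deleted gene and next to Mpp6 were examined by their order in RefSeq (GRCm38.p6), taking 20 genes on each side. Of 40 genes around Saa3, 39 were in the file and 20 were tested; 8 were above 0 (48.6% of all tested genes were) with a median of -0.26, and 0 were called. The gene directly beside Saa3, Saal1 (serum amyloid A-like 1), was the only one with an unadjusted p under 0.05. It stood at 1.82, 2.203, 2.01, 3.41 and 3.61 FPKM in WT_CAF 1 to 5 and at 2.68, 0.568 and 0.781 FPKM in KO_CAF 1 to 3. KO_CAF 2 and 3 were below all wild-type libraries and KO_CAF 1 was inside their range. The difference was -0.87 ± 0.31 (limma adjusted p = 1). In tumor cells Saal1 was at 0.985 to 1.39 FPKM in WT_tumor and at 0.108, 0.144 and 0.448 FPKM in KO_tumor, without overlap, with a difference of -0.84 ± 0.28 (limma adjusted p = 1). Saal1 thus had the same direction and near the same size in both cell types, with neither called.

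Around Mpp6, 38 of 40 genes were in the file and 28 were tested; 15 were above 0, with a median of 0.016, and 0 were called. The gene directly beside Mpp6, Dfna5 (now Gsdme, a gasdermin that forms membrane pores after cleavage by caspase 3), was again the only one with an unadjusted p under 0.05. It stood at 0.534, 0.555, 0.902, 1.998 and 1.06 FPKM in WT_CAF 1 to 5 and at 2.82, 2.70 and 2.66 FPKM in KO_CAF 1 to 3. The 3 knockout libraries were close together and above all wild-type libraries, with a mean 2.70 times as high. The difference was 0.79 ± 0.22 (limma adjusted p = 1), and 0.30 ± 0.20 in tumor cells, where the groups overlapped. The genes on the far side of Dfna5 and on the other side of Mpp6 did not differ at an unadjusted p under 0.05.

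**Figure D3:**
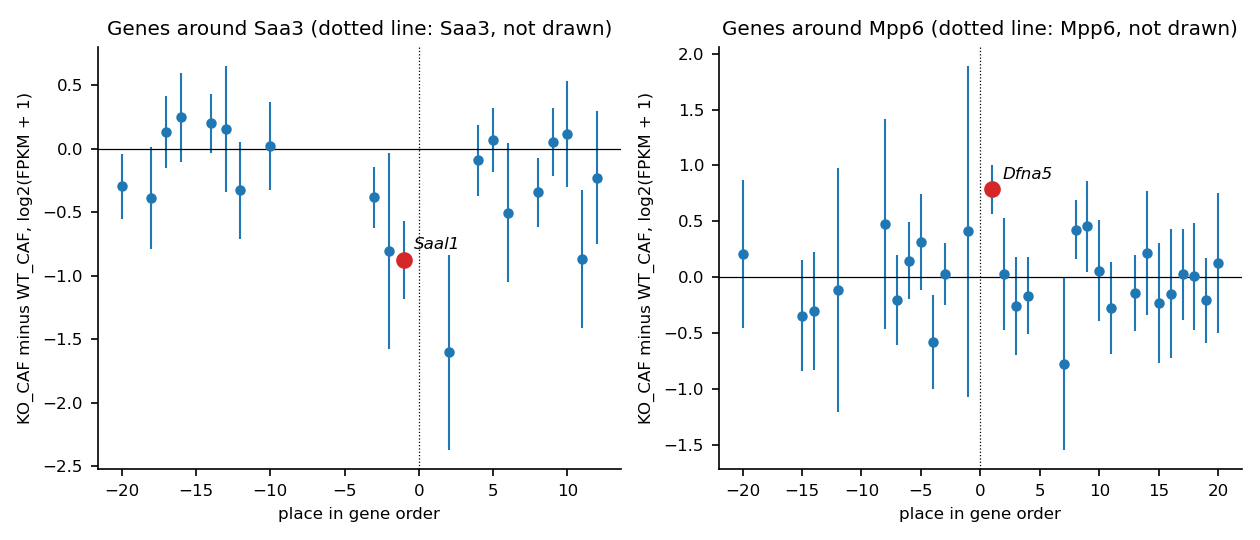
Difference between KO_CAF and WT_CAF, log2(FPKM + 1), with its standard error (bars), for the tested genes among the 20 nearest on each side of Saa3 (left) and Mpp6 (right), by place in the gene order. Red points, Saal1 and Dfna5, have an unadjusted p under 0.05; each lies directly beside the gene in question.

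Other serum amyloid A genes were low in tumor fibroblasts of either genotype. Saa1, the main acute-phase form, was at 0, 1.29, 1.22, 14.2 and 0 FPKM in WT_CAF 1 to 5 and at 0, 0.113 and 0 FPKM in KO_CAF 1 to 3. WT_CAF 2 to 4 were above the knockout libraries and the other two were at 0, so the groups overlapped (-1.60 ± 0.77, limma adjusted p = 1). Saa2 reached at most 1.46 FPKM and Saa4 at most 0.177, both in WT_CAF 4, and neither was tested. Of 12 receptor and adaptor genes of serum amyloid A signalling, 9 were tested, 3 were above 0 and 0 were called, with a median of -0.15 that changed sign among the settings (-0.22 to 0.18). Tlr4, the endotoxin receptor, was at 2.08 to 10.3 FPKM in WT_CAF and 3.53 to 8.49 in KO_CAF (0.19 ± 0.55), and Tlr2, which senses bacterial lipoproteins, at 2.36 to 11.1 and 3.12 to 6.98 FPKM (-0.03 ± 0.39). The knockout values of both receptors lay inside the wider wild-type range.

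Among relatives and partners of Mpp6, no other gene was called. Of 27 MAGUK scaffolds and partners, 23 were tested, 10 were above 0 and Mpp6 was the only one called, with a median of -0.02 beside -0.01 over all genes tested. Its closest relatives in name, Mpp1 (-0.05 ± 0.63), Mpp2 (-0.12 ± 0.51), Mpp5 (0.05 ± 0.24) and Mpp7 (-0.02 ± 0.30), lay near 0. So did its Lin7 partners Lin7a (-0.12 ± 0.48) and Lin7c (-0.04 ± 0.29), the scaffold Cask (0.00 ± 0.27) and Dlg1 (0.00 ± 0.32). Among the cell adhesion molecules of the list, Cadm1 was at -0.40 ± 0.86 and Cadm4 at -0.83 ± 1.01, with errors as large as the differences. A p that misses the threshold does not show that these genes were equal.

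Gene lists for the programs of tumor fibroblasts are described by counts, with no test of a list. Over 37 lists, 612 distinct genes were tested, of which 9 (1.47%) had an unadjusted p under 0.05, beside 0.935% of all genes, and 9 (1.47%) had groups that did not overlap, beside 1.2%. Both shares were near the background. Apart from Mpp6, 0 listed genes were called with all libraries. Those with groups that did not overlap were Mpp6 and the retinol carrier Rbp4 above, and Saa3, Met, the stress gene Gadd45a, the squalene synthase Fdft1 and 3 respiratory chain genes (Ndufb5, Ndufv1 and Uqcrfs1) below. Gadd45a, induced by p53 and by growth arrest, was at 29.1, 26.4, 48.0, 18.7 and 25.9 FPKM in WT_CAF 1 to 5 and at 13.2, 11.4 and 16.1 FPKM in KO_CAF 1 to 3. Its difference was -0.99 ± 0.45 (limma adjusted p = 1).

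Most matrix genes had differences above 0, and none was called. Of 20 collagens, 15 were above 0 (median 0.44, 0.07 to 0.77 among the settings), and of 31 matrix glycoproteins and proteoglycans 23 were (median 0.36, 0.10 to 0.91). Thbs1, a secreted glycoprotein that activates latent TGF-beta, was the matrix gene with an unadjusted p under 0.05. It stood at 350, 670, 382, 169 and 244 FPKM in WT_CAF 1 to 5 and at 318, 439 and 682 FPKM in KO_CAF 1 to 3, with overlap (1.02 ± 0.46, limma adjusted p = 1). The wild-type libraries of the 16-base format, WT_CAF 4 and 5, were the lowest. Fitted values of Col1a1, Col1a2, Col3a1 and Fn1 rest on the zeros described above. Where it was estimated, Col1a1 was at 331, 6494, 10435, 1838 and 3031 FPKM in WT_CAF 1 to 5 and at 6029 and 3426 FPKM in KO_CAF 1 and 3, which lay inside the range of WT_CAF.

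Inflammatory fibroblast genes had 18 of 23 members above 0 (median 0.39), a median that with the 3-level term does not depend on WT_CAF 1 or 2. With the 2-level format term, in which both enter the size of a difference, the median was 0.77 with WT_CAF 1. Without WT_CAF 1 and with that 2-level term it was -0.02, and 10 of 23 were above 0, beside 47.6% of all genes. Il6, a cytokine that these fibroblasts secrete, was at 26.5, 995, 414, 653 and 79.6 FPKM in WT_CAF 1 to 5 and at 133, 929 and 609 FPKM in KO_CAF 1 to 3. Cxcl1, a neutrophil chemokine, was at 61.2, 3000, 1446, 2679 and 180 FPKM and at 328, 2844 and 2436 FPKM. Both genes were high or low by library and not by genotype, with KO_CAF 1 low among the knockouts and WT_CAF 1 and 5 low among the wild types. NF-kB targets (18 of 30 above 0, median 0.06), acute-phase genes (6 of 12, 0.02), chemokines (9 of 23, -0.10), complement (6 of 18, -0.11) and interferon response genes (10 of 27, -0.12) all changed sign among the settings. Among chemokines, Cx3cl1 was at 10.6 to 31.7 FPKM in WT_CAF and 10.8 to 15.2 in KO_CAF (-0.81 ± 0.35, limma adjusted p = 1), and Ccl17 at 0.0879 to 5.57 and 0 to 1.31 FPKM (-1.17 ± 0.53, limma adjusted p = 1). Myofibroblast genes, which build the contractile apparatus, had 6 of 22 members above 0 (median -0.34), and the median changed sign among the settings too. Lef1, a transcription factor of Wnt signalling, was at 4.63 and 5.08 FPKM in WT_CAF 3 and 5 and at most 1.02 in the other 6 libraries (-1.37 ± 0.52, limma adjusted p = 1).

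Some lists had nearly all members on 1 side. All 30 cell cycle genes were above 0 (median 0.48, 0.06 to 1.03 among the settings), from 0.09 for the replication clamp Pcna to 1.02 for the helicase subunit Mcm6. None was called, and the list mean was 2.22 to 2.93 in WT_CAF 2 to 5, 3.67 in WT_CAF 1 and 2.69 to 3.14 in KO_CAF, so the groups overlapped. Within the 6-base format it was 3.00 and 2.69 in KO_CAF 1 and 2, on both sides of 2.91 in WT_CAF 3. Within the 16-base format it was 3.14 in KO_CAF 3 against 2.22 and 2.76 in WT_CAF 4 and 5. The genotypes were thus apart only in the format that holds 1 knockout library. Of 26 oxidative phosphorylation genes 25 were below 0 (median -0.23, -0.29 to -0.14 among the settings). Their list mean was 6.30, 6.21 and 6.55 in KO_CAF 1 to 3 and 6.45 to 6.74 in WT_CAF, with only KO_CAF 3 in the wild-type range. Ndufv1, a subunit of respiratory complex I, was at 38.6 to 56.1 FPKM in WT_CAF and 33.4 to 34.0 in KO_CAF (-0.27 ± 0.26, limma adjusted p = 1). The knockout values of Ndufv1 lay close together, and the lowest wild-type values were not far above them. Members of 1 list are not independent of each other. Glycolysis and hypoxia genes (5 of 23 above 0, median -0.39) changed sign among the settings. Cholesterol and fatty acid synthesis genes (6 of 23, -0.23) did not.

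**Figure D4:**
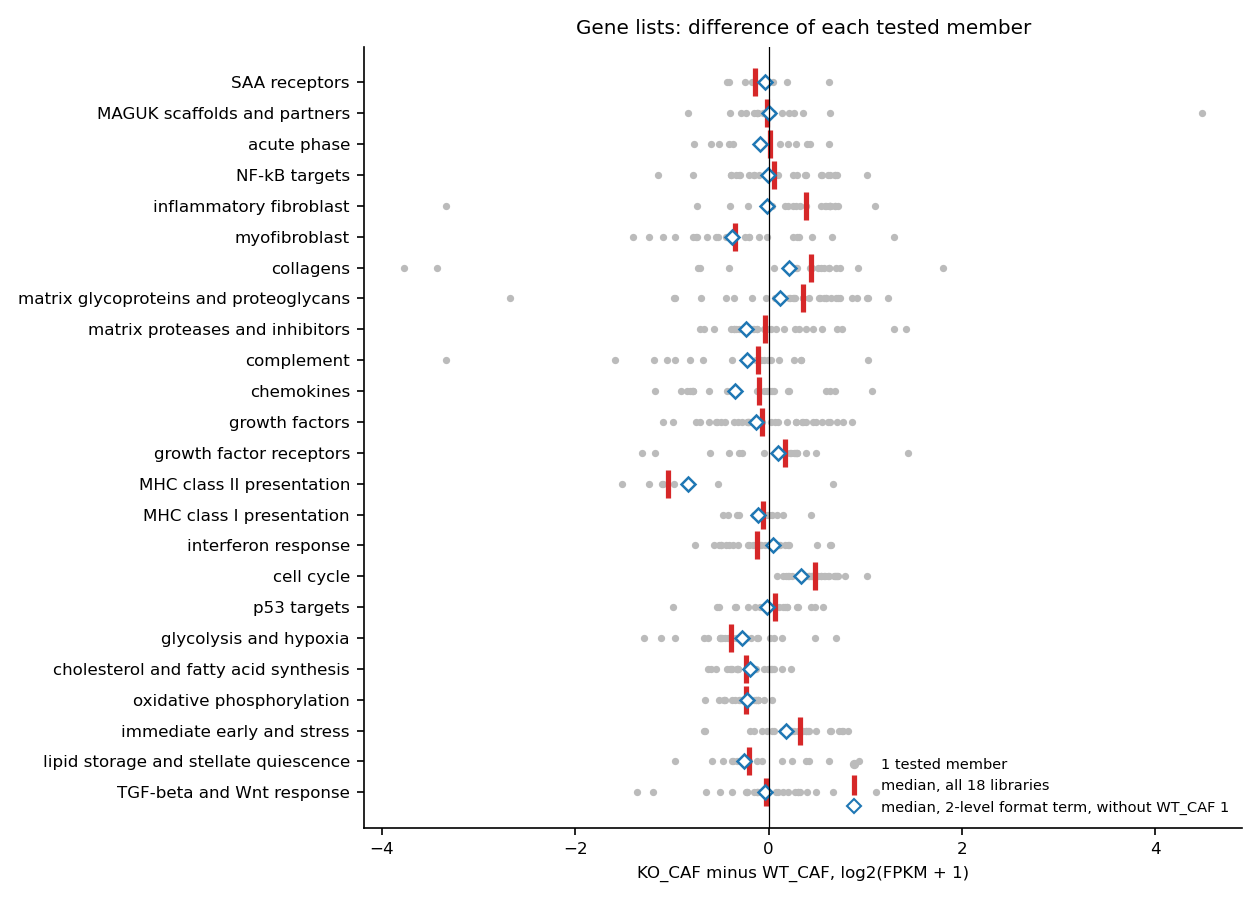
Difference between KO_CAF and WT_CAF, log2(FPKM + 1), of each tested member (gray points) of 24 gene lists, with the median over all 18 libraries (red bar) and without WT_CAF 1 with the 2-level format term (blue diamond). Red bars lie from -1.03 (MHC class II) to 0.48 (cell cycle). All members of the cell cycle list lie to the right of 0. Most members of the oxidative phosphorylation and MHC class II lists lie to the left, and Mpp6 stands at 4.49.

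MHC class II presentation genes, the antigen-presenting machinery that some tumor fibroblasts also express, had 1 of 8 members above 0 (median -1.03, -1.41 to -0.06 among the settings), with 0 called. H2-Ab1, a class II beta chain, was at 0.426, 15.7, 84.0, 44.9 and 42.9 FPKM in WT_CAF 1 to 5 and at 73.8, 5.35 and 15.9 FPKM in KO_CAF 1 to 3. The invariant chain Cd74 was at 0.647, 26.0, 64.2, 79.0 and 23.8 FPKM and at 40.8, 7.99 and 33.4 FPKM. KO_CAF 1 was among the high libraries for both genes, so the genotypes overlapped. Macrophage markers, whose cells carry class II genes, had 1 of 14 members above 0 (median -0.63), and their summed FPKM was 330, 46.4 and 62.5 in KO_CAF 1 to 3 and 89.6 to 237 in WT_CAF, and KO_CAF 1 was again the highest of the knockout libraries. None of the 19 macrophage markers in the file was below 0.1 FPKM in all 8 libraries. The part of macrophages in the class II values was not tested.

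Markers of other cell types varied widely between libraries of 1 genotype. Acinar markers, enzymes that stand for RNA of the exocrine pancreas, had 3 of 24 members above 0 (median -1.86) and summed to 14.5, 23.9 and 562 FPKM in KO_CAF 1 to 3, 34.0 in WT_CAF 1 and 299 to 1619 in WT_CAF 2 to 5. KO_CAF 1 and 2 and WT_CAF 1 were low, and KO_CAF 3 lay inside the range of WT_CAF 2 to 5. KO_CAF 1 carried 599 FPKM of 9 neutrophil markers, against 7.89 and 34.7 in KO_CAF 2 and 3 and at most 67.6 in WT_CAF. S100a8, a calcium-binding protein of neutrophils, was at 280 FPKM in KO_CAF 1. Without KO_CAF 1, Mpp6 rose by 4.499 (limma adjusted p = 0.00146), and Aff3, a nuclear protein of the AF4 family, rose as well (2.16, limma adjusted p = 0.00759). Aff3 was at 0.0783, 7.46 and 4.07 FPKM in KO_CAF 1 to 3, at 0.0198 to 0.727 in WT_CAF and at 1.66 to 1.83 in NPF. Only KO_CAF 2 and 3 were above normal fibroblasts.

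**Figure D5:**
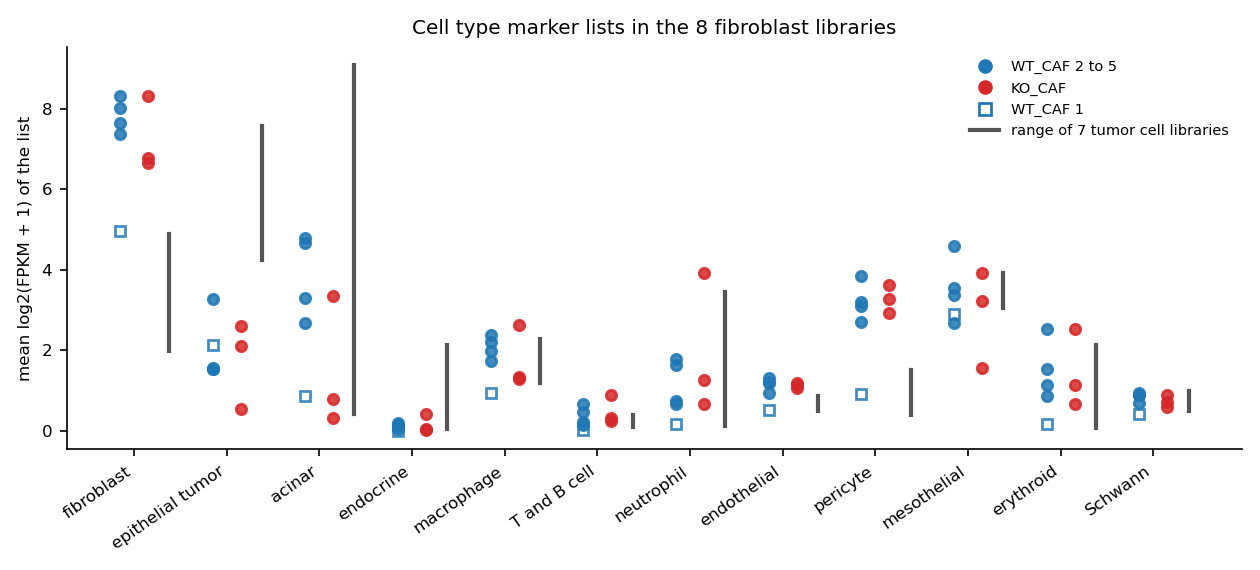
Mean log2(FPKM + 1) of 12 cell type marker lists in each tumor fibroblast library (blue points WT_CAF 2 to 5, open square WT_CAF 1, red points KO_CAF), with the range of the 7 tumor cell libraries as a gray line. WT_CAF 1 is the lowest of the 8 libraries for fibroblast and pericyte markers, and KO_CAF 1 is the highest for neutrophil markers.

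For the genes that carried the comparison, the levels of other cells were set beside the values. Mpp6 was high in all 3 KO_CAF libraries, including KO_CAF 2, whose epithelial tumor markers summed to 16.5 FPKM, below every WT_CAF library. The 3 KO_CAF libraries held more Mpp6 than any tumor cell library. The part of other cells in the Mpp6 values was not tested. Chil1 and Il19 were lower in the tumor cell libraries than in WT_CAF 2 to 5, and their low values in WT_CAF 1 stood beside its low fibroblast marker sum. The part of that library's makeup in its Saa3, Chil1 and Il19 values was not tested. Erythroid RNA was uneven as well. The 5 erythroid markers in the file summed to 80.1 FPKM in KO_CAF 1, 59.3 in WT_CAF 5 and 0.621 to 17.1 in the other libraries. Of 4 tested, 2 were above 0 and 2 below. The hemoglobin gene Hba-a2 was at 26.7 FPKM in WT_CAF 5 and at most 3.24 in the other 7 libraries (-1.44 ± 0.65, limma adjusted p = 1). The hemoglobin gene Hba-a1 went the other way (0.53 ± 1.04).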

How the data were processed

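The authors deposited 1 table of FPKM for 23951 gene symbols in 18 libraries. Libraries were made with a Truseq kit from sorted cells, per the labels' protocols. Cuffnorm, Cufflinks 2.2.1, SAMtools 0.1.19, TopHat2 2.0.10 and Bowtie 1.0.0 were used, per the submitters' processing notes, which list mm9 as the only mouse build. Annotation, strand setting and read counts are not stated, so depth is unknown.

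The 13369 genes that reached 1 FPKM in 3 libraries or more were tested on log2(FPKM + 1) with limma 3.58.1 in R 4.3.3 (empirical Bayes with trend, two-sided). All 18 libraries entered 1 fit with group and library format (3 levels), leaving 11 residual degrees of freedom. A gene was called at a Benjamini-Hochberg adjusted p under 0.05 over all genes tested. WT_CAF 1 and 2 share their format with NPF only, so with this term they affect the error of a difference and not its size; "within" a format means the plain difference of means in it. Differences understate changes of low genes. Exact permutation tests used unadjusted log2 values of Saa3 and Mpp6. A zero counted as a failed estimate where at least 2 other libraries of the group were above 0 and all of these had 50 FPKM or more.

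Named genes were Saa3, Mpp6, genes called in this fit or in an alternative without WT_CAF 1, the 12 lowest p-values on each side (mean of 5 FPKM or more), the most abundant list members and those with an unadjusted p under 0.05, and neighbours with such a p. The members, the 37 gene lists and these rules were chosen with earlier results of these data known. Of the lists not described above, 0 members were called.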

Additional observations from a re-analysis of the deposited data

Results flagged for a closer look

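A library far from the rest of its group was found in 6 of 37 genes and list means examined in the 5 WT_CAF libraries, where chance gives about 1 in 20 for items chosen without regard to the libraries. That rate does not apply to WT_CAF 1 here: it was named as apart beforehand, and Chil1 and Il19 were included because they were called when it was left out. WT_CAF 1 was low for Saa3 (7.24 FPKM against 892 to 4278 in the others), Chil1 (0.456 against 20.5 to 57.0), Il19 (0.135 against 1.94 to 3.11) and the mean of the fibroblast markers (4.96 against 7.39 to 8.33 on the log2(FPKM + 1) scale). WT_CAF 3 was low for Mfap3, a microfibril-associated protein (3.58 FPKM against 7.59 to 8.18), and high for Mcpt1 (30.8 FPKM against 0 to 1.57). These 6 values share libraries and are not independent of each other.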

How the results depend on the processing

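No paired analysis was possible because the labels give no replicate numbers. Over 20 alternatives the number of genes higher in KO_CAF was 1, with few exceptions. It was 5 with library weights, 2 without KO_CAF 1 and 0 when the 8 tumor fibroblast libraries were fitted alone (Mpp6 4.46 ± 0.52, adjusted p = 1). Genes lower numbered 0, except 3 without WT_CAF 1 with no format term or with the 2-level term, 4 with library weights, 1 without WT_CAF 4 and 1 (Snora75) with failed estimates set to missing. Leaving out single libraries gave 1 to 2 higher (Aff3 added without KO_CAF 1) and 0 to 1 lower (Sp6 without WT_CAF 4). The test between cell types called 0 to 1 gene when single libraries were left out, and 1 (Mpp6) with no format term, with the 2-level term, with either of these without WT_CAF 1, and with library weights. Saa3 passed with no format term without WT_CAF 1 (-9.76, adjusted p = 0.0128), with the 2-level term without WT_CAF 1 (-9.86, 0.0248) and with library weights (-10.23, 0.0010). Library weights also called Chil1, Il19 and Met lower and Dynlt1b, Mir719, Rnaset2b and Rprml higher. Over all settings the limma adjusted p ranged from 0.0010 to 1 for Saa3, 3.7e-06 to 1 for Mpp6, 0.031 to 1 for Chil1 and 0.0246 to 1 for Il19. No direction of a called result reversed. The causes were not tested. The low number of libraries limits these fits, and values under 1 FPKM rest on an unknown number of fragments.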
